A study of Mus musculus and Rattus norvegicus with 8 samples.

Results

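The T cell receptor complex and its nearest signalling genes were followed in rat and mouse lung after mechanical ventilation. They were named as 10 genes: the CD3 subunits Cd3d, Cd3g, Cd3e and Cd247, the kinase gene Lck, the scaffold gene Lat, and the surface molecule genes Cd2, Cd5, Cd8a and Thy1. Every probe set whose only gene symbol was one of these was taken. That gave 12 of 8740 probe sets and 9 of 4736 genes on the rat array, and 11 of 12422 probe sets and 9 of 8251 genes on the mouse array. Cd3e had no such probe set on the rat array, and Lck had none on the mouse array. The genes were chosen for their strong rise in ventilated rats, so the rat values of the members are a description and carry no test. The rule for that choice names the rat contrast and not the mouse. The mouse comparison was tested, although the members were chosen with earlier results of these data known.

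The series holds 8 lung RNA samples, 1 oligonucleotide array each, with 2 ventilated and 2 control samples in each species. The ventilated rats were male Wistar animals, 8 weeks old, ventilated mechanically with room air at 12 ml/kg for 5 hours, and the control rats breathed on their own through the same kind of tracheal cannula. The ventilated mice were male C57BL6 animals, 7 to 8 weeks old, given a large tidal volume of either 17 ml/kg over 6 hours or else 35 ml/kg over 2 hours, and the control mice breathed spontaneously without a ventilator. The labels do not say which mouse array had which regimen, so both form 1 group. The labels give n = 2 for the rat groups and the mouse controls and do not say whether RNA of several animals was pooled. The p-values measure only the spread between these samples, which may be technical, with 2 arrays a group limiting the precision of every value.

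A T cell recognises antigen with a receptor whose antigen-binding chains have almost no cytoplasmic part. The CD3 gamma, delta and epsilon subunits and the zeta chain, made from Cd3g, Cd3d, Cd3e and Cd247, carry the signal inward. Lck, which binds CD4 or CD8, phosphorylates them, and the adaptor LAT then gathers the enzymes that release calcium and start the Ras and protein kinase C pathways. In the lung these genes are known as markers of T cells among the tissue and blood leukocytes. In a whole-lung sample, a change in the number of cells of a type and a change in RNA per cell cannot be told apart.

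The Cd3g and Cd3d genes, the CD3 subunit genes with the largest differences in the rat, lie head to head in the mouse genome, with 1355 bases between their starts. The mouse sequences below are shown because these neighbours share that short stretch. They are the 250 bases before each start, credited to RefSeq on build GRCm38.p6, where 8 of the 10 members had an entry. The rat sequence was not used here. Cd3d is at chr9:44981536-44981785 on the plus strand and Cd3g at chr9:44980432-44980681 on the minus strand, both printed 5′ to 3′ in the direction of transcription.
Cd3d: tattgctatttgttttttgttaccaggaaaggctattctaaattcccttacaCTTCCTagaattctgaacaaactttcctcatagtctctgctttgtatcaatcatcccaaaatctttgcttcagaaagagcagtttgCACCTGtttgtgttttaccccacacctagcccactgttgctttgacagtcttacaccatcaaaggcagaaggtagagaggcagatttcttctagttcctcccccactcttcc
Cd3g: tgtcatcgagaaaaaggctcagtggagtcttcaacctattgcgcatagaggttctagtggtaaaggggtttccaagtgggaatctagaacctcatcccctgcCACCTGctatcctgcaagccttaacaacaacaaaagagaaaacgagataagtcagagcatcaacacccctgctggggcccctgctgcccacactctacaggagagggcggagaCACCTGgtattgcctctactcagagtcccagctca

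Capitals mark matches, on either strand, to 4 motifs searched as plain letters, none of which overlapped another in these windows. CAGGTG, an E-box, was found 1 time before Cd3d and 2 times before Cd3g, and 17.2% of the 32851 mouse windows of the same length held it. AGGAAG, the core letters of many Ets factor sites, was found 1 time before Cd3d and 0 times before Cd3g, and was present in 29.5% of the windows. The letters TATAAA, of the TATA box, and TGTGGT, of Runx factor sites, were in neither sequence and in 12.4% and 14.0% of the windows. A match of these letters is a description of the sequence only.

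All signals below were normalised so that the arrays of a species share 1 distribution. Signals under the 25th percentile of all probe sets, 11.5 in the rat, were raised to that floor before log2 was taken for a difference, while the signals themselves are printed as they stood. Each gene is given by its brightest probe set unless another is named. The CD3 subunit genes were far brighter in ventilated rats. Cd3g had signals of 961 and 997 on the ventilated arrays and of 48.5 and 43.5 on the control arrays, and Cd3d had 816 and 874 on the ventilated arrays and 61.0 and 77.7 on the control arrays. For both, the ventilated arrays lay close together and over 10 times above either control. The log2 differences were 4.41 ± 0.15 for Cd3g and 3.62 ± 0.17 for Cd3d (SE from limma, n = 2 each). Cd247, the zeta chain gene, had signals of 326 and 335 in ventilated rats and of 60.5 and 57.5 in controls, a log2 difference of 2.49 ± 0.16 (SE), smaller than that of the other subunits measured.

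**Figure D1:**
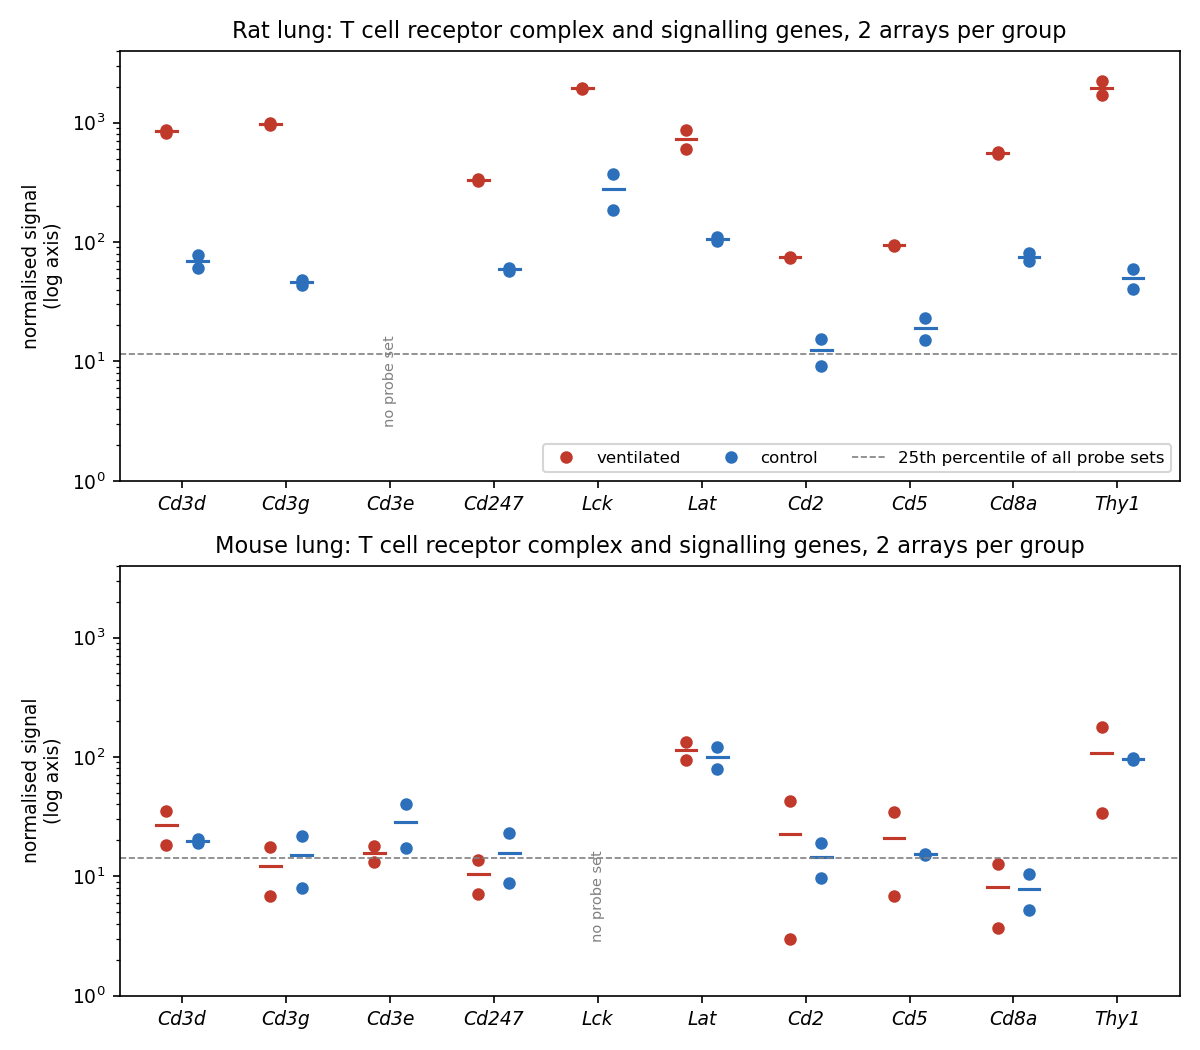
Normalised signal on a log axis for each member, with rat above and mouse below. Points are single arrays (ventilated left in red, control right in blue), short bars are means of 2 arrays, and the dashed line is the 25th percentile. In the rat every pair of ventilated points lies above its controls, and in the mouse the pairs overlap for all 9 genes. The arrays of the species differ, so heights are not comparable between panels or between genes.

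Of the signalling members, Lck, the kinase that starts the cascade, had signals of 1965 and 1920 in ventilated rats, against 370 and 185 in controls, whose 2 arrays differed by a factor of 2.00. Its log2 difference was 2.89 ± 0.30 (SE). Lat had signals of 596 and 871 in ventilated rats and of 102 and 111 in controls, a log2 difference of 2.77 ± 0.21 (SE). Here it was the ventilated arrays that differed, by a factor of 1.46, the widest gap among the members within that group.

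The surface molecules covered the widest range. Thy1, a glycoprotein gene of thymocytes and recently formed T cells in the rat and also of neurons and fibroblasts, had signals of 1715 and 2219 in ventilated rats and of 59.9 and 40.1 in controls. Its log2 difference of 5.32 ± 0.23 (SE) was the largest of the 3876 rat genes tested. Cd8a, the co-receptor chain of cytotoxic T cells, had signals of 544 and 563 in ventilated rats and of 69.3 and 80.9 in controls, a log2 difference of 2.89 ± 0.16 (SE). Cd5, a damper of receptor signals, had signals of 95.2 and 92.2 in ventilated rats and of 15 and 23.0 in controls, a log2 difference of 2.34 ± 0.29 (SE). Cd2, an adhesion receptor of T and NK cells, had signals of 74.1 and 74.5 in ventilated rats and of 9.22 and 15.5 in controls. One control array for Cd2 lay under the floor, so the size of its log2 difference, 2.48 ± 0.28 (SE), depends on where the floor is set and was 1.45 with a floor at the 40th percentile.

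In all 9 genes both ventilated rat arrays exceeded both control arrays. Of all rat genes tested, 27.8% did so, and in 27.2% both ventilated arrays lay below both controls. Since the members were chosen on this contrast, the count describes them and shows nothing further. The same holds for the 9 of 9 members with a log2 difference of at least 2, against 0.619% of genes tested. The members ranked between 1 and 18 among 3876 genes, from Thy1 to Cd5, and 6 of the 10 largest differences were members. Their median log2 difference was 2.89, beside -0.01 over all genes tested. The lowest ventilated signal was between 4.01 times (Cd5) and 28.6 times (Thy1) the highest control signal. In rank among all probe sets of an array, the members had a median percentile of 93.0 in ventilated rats and of 56.6 in controls.

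Genes with more than 1 probe set gave the same direction with different sizes. The second Thy1 probe set had signals of 349 and 379 in ventilated rats and of 23.4 and 33.1 in controls, a log2 difference of 3.71. The second Cd3g probe set had signals of 647 and 720 in ventilated rats and of 83.1 and 63.1 in controls, a log2 difference of 3.24, and the second for Cd5 had a log2 difference of 2.16. Across the 12 probe sets the log2 difference ran from 2.16 to 5.32. The sizes for Thy1 and Cd3g depended on the probe set, and the direction was the same in each.

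The other genes of the pathway were counted without the members. Limma called 224 of 3876 rat genes (5.78%) at an adjusted p under 0.05, 2.48% higher and 3.3% lower in ventilated rats. Of 12 other receptor chain and surface molecule genes measured, 8 were bright enough to test, 2 were called higher and none lower, and their median log2 difference was 0.48. Cd8b, the partner chain of Cd8a, had signals of 312 and 257 in ventilated rats and of 48.0 and 62.3 in controls. The groups stood well apart, and it rose by 2.37 ± 0.21 on the log2 scale (SE; limma adjusted p = 0.00488). Spn, the leukocyte sialophorin gene, had signals of 69.7 and 93.2 in ventilated rats and of 29.4 and 35.6 in controls, and rose by 1.32 ± 0.26 (SE; limma adjusted p = 0.0409). These calls depend on the handling of dim genes: both Cd8b and Spn were lost with a floor at the 40th percentile and with no filter on dim genes. Leaving out 1 rat array leaves 1 array in a group, so calls were not read there. The log2 difference then ranged from 2.20 to 2.57 for Cd8b and from 1.10 to 1.52 for Spn. Spn was also lost under further alternatives, among them no variance trend, averaged probe sets and the values as deposited. It has 1 probe set, so averaging left its own values unchanged and altered only other genes of the fit.

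The other T cell surface genes tested were not called. Cd4, the co-receptor gene of helper T cells, had signals of 84.4 and 82.6 in ventilated rats and of 58.5 and 77.5 in controls, a log2 difference of 0.31 ± 0.22 (SE; limma adjusted p = 0.448). Ptprc, the CD45 gene of all leukocytes, had signals of 136 and 164 in ventilated rats and of 144 and 129 in controls, which overlap, with a log2 difference of 0.13 ± 0.18 (SE) that had the opposite sign without ventilated 2. Il2rb, a chain of the interleukin-2 and interleukin-15 receptors, had a log2 difference of -0.32 ± 0.22 (SE). Cd48, a ligand of CD2 in rodents, stood at 0.42 ± 0.11, and the inhibitory receptor gene Ctla4 at 0.81 ± 0.29 (SE), with limma adjusted p of 0.0772 and 0.153. The T cell receptor gamma locus, Trg, was outside the lists and was picked after its values were seen: it had signals of 33.5 and 39.9 in ventilated rats, and both controls, 6.55 and 8.45, lay under the floor, making it at least 3.19-fold higher, a bound set by the floor (limma adjusted p = 0.0309; 0.0264 to 0.183 over the alternatives with all arrays). Its log2 difference was 1.67, against 0.43 with the floor at the 40th percentile, and its call was lost there and with no filter.

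Of 24 relays tested downstream of the receptor, none was called higher and 2 were called lower, with a median log2 difference of -0.10. The RNA was of lung tissue, so these values cover all its cells and not T cells alone. Plcg1, the phospholipase that LAT binds, had signals of 137 and 143 in ventilated rats and of 273 and 249 in controls, and fell by 0.90 on the log2 scale (SE 0.15; limma adjusted p = 0.0308). Itpr1, the calcium release channel gene, had signals of 97.4 and 71.5 in ventilated rats, against 176 and 197 in controls (limma adjusted p = 0.0366), by the brightest of its 5 probe sets. Both calls were lost with the floor at the 40th percentile, with no filter and with no variance trend, and that of Itpr1 also with averaged probe sets. The adaptor gene Grb2 had a log2 difference of -0.43 ± 0.12 and the diacylglycerol kinase gene Dgka one of 0.55 ± 0.16 (SE), and neither was called. A further set of direct partners of the complex, named after their values were seen, were Fyn, the second Src-family kinase of T cells, Vav1, an exchange factor, and Lcp2, the SLP-76 adaptor gene. Their log2 differences were -0.09 ± 0.14, -0.06 ± 0.23 and 0.13 ± 0.26 (SE), with limma adjusted p of 0.739, 0.904 and 0.806. The sign for Fyn turned with scaling to a common median, for Vav1 without control 1 and for Lcp2 without ventilated 2.

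Of 9 T lineage transcription factors tested, none was called higher and 1, Notch1, was called lower, with a median log2 difference of -0.10. Of the 9, 4 were positive, up to 0.48, and 5 were negative. In 3 both ventilated arrays lay above both controls and in 3 below, against 27.8% and 27.2% of all genes tested. Notch1, which is required for T lineage choice and is active in endothelium as well, had signals of 114 and 110 in ventilated rats and of 276 and 276 in controls, and fell by 1.30 on the log2 scale (SE 0.15; limma adjusted p = 0.0117). Ets1 and Runx1 had log2 differences of -0.74 ± 0.22 and -0.39 ± 0.19 (SE) and were not called.

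**Figure D2:**
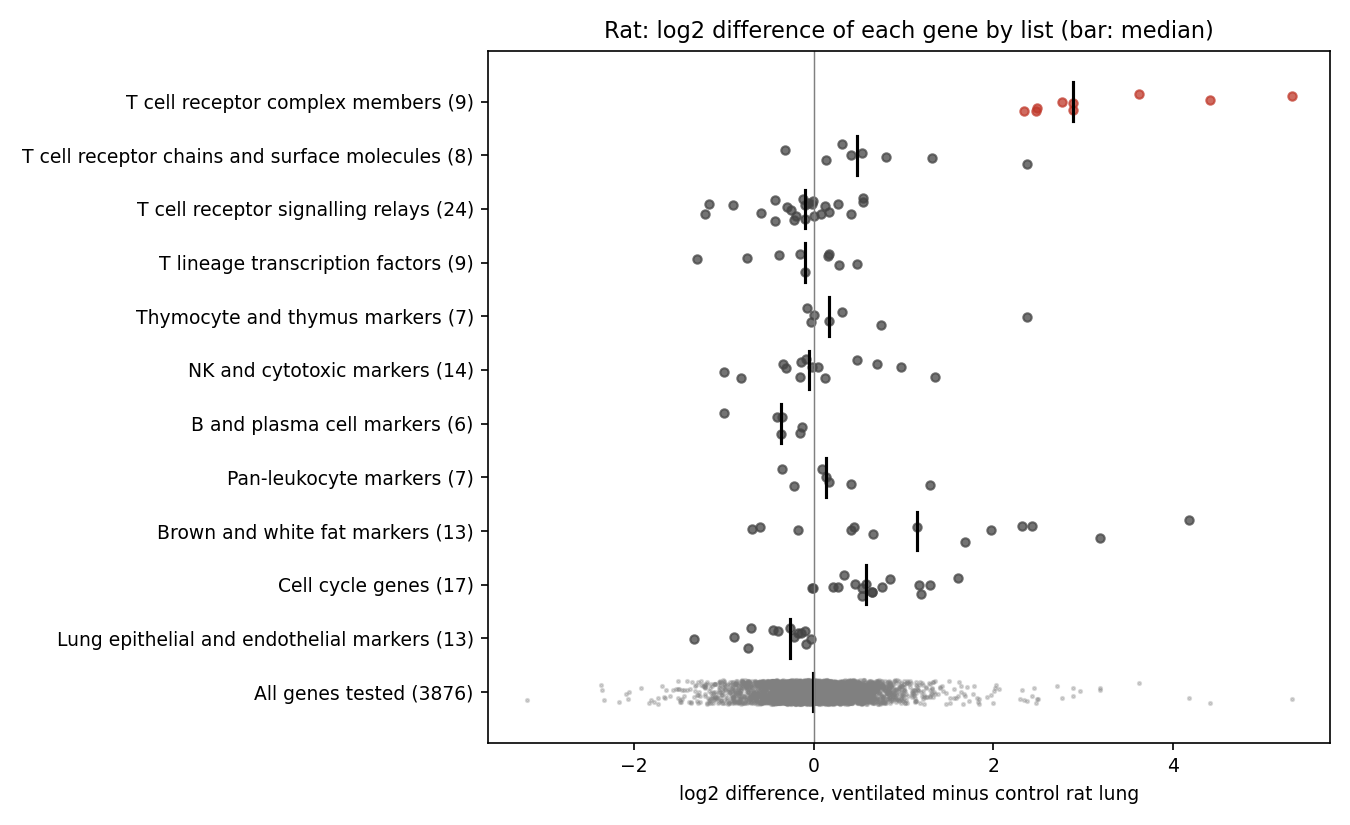
Log2 difference between ventilated and control rat lung for each gene (points), by list, with the number of genes tested in brackets and the median as a bar. The 9 members, chosen on this contrast, lie between 2.34 and 5.32, while the signalling relays and T lineage factors centre at -0.10.

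Markers of other cell types were called in both directions on the same arrays. Of the thymus list, 7 genes were tested and 1, Cd8b, was called higher, with a median log2 difference of 0.17 and a summed signal of 1838 to 1867 in ventilated rats, against 1471 to 1563 in controls. Without Cd8b the sums were 1526 and 1609 in ventilated rats and 1423 and 1501 in controls. Rag1, a recombinase gene that defines developing thymocytes, was under the floor on all 4 rat arrays, at 2.62 and 10.0 in ventilated rats and 1.95 and 3.36 in controls. The other defining thymocyte markers, Rag2, Dntt and Ptcra, were not measured by a singly named probe set there. The lipid-presenting gene Cd1d1 had a log2 difference of 0.75 ± 0.30 (SE) and was not called.

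Of 13 fat markers tested, 6 were called higher and 1 lower, the lipase gene Lipe, named after its values were seen, with a median log2 difference of 1.14. Their summed signal was 4267 to 4671 in ventilated rats, against 2541 to 2758 in controls. Ucp1, the brown fat uncoupling protein gene, had signals of 1216 and 1182 in ventilated rats, against 75.2 and 58.9 in controls. Without Ucp1 the fat sums were 3051 and 3489 in ventilated rats and 2683 and 2482 in controls. Cell cycle genes had 1 of 17 called higher, the replication clamp gene Pcna, and 15 of 17 positive, with a summed signal of 3735 to 4099 in ventilated rats and of 2831 to 2920 in controls. Fibroblast and smooth muscle markers, a list of cells that can also express Thy1, had none of 17 called higher and 7 called lower, with a median log2 difference of -0.42. Neutrophil markers had 2 of 8 called higher, the defensin gene Defa5 and the calprotectin gene S100a8, and none lower. None of 9 macrophage and none of 8 neuronal markers was called. The part of these shifts in the members' differences was not tested.

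NK and cytotoxic markers had a summed signal of 963 to 973 in ventilated rats, against 1336 to 1395 in controls. Without Ccl5 the sums were 537 and 598 in ventilated rats and 572 and 562 in controls, which overlap. Of 14 tested, 6 were positive and 8 negative, with a median log2 difference of -0.05. None was called higher and 1 was called lower, Ccl5, which encodes a chemokine made by activated lymphocytes, and which had signals of 436 and 365 in ventilated rats and of 822 and 773 in controls (limma adjusted p = 0.016). Prf1, the perforin gene, had 3.77 and 5.67 in ventilated rats and 11.7 and 14.8 in controls, and was too dim to test. By p, Ccl5 was followed by Ccl3 and Xcl1, with log2 differences of 0.98 ± 0.30 and 1.35 ± 0.48 (SE). Both controls of Xcl1 lay under the floor. Ncr1, a defining NK marker, had -0.81 ± 0.37 (SE), and none of these was called. In 3 of the 14 both ventilated arrays lay above both controls and in 4 below, against 27.8% and 27.2% of all genes tested. B and plasma cell markers had a summed signal of 860 to 886 in ventilated rats and of 1132 to 1226 in controls. All 6 tested were negative, and Cd79b, a B cell receptor subunit gene, was called lower with signals of 77.5 and 97.5 in ventilated rats and of 186 and 161 in controls (limma adjusted p = 0.0444). Among 7 pan-leukocyte genes 1 was called higher, Coro1a, an actin regulator abundant in T cells, with signals of 1035 and 1169 in ventilated rats and of 547 and 368 in controls (limma adjusted p = 0.023). The calls of Ccl5, Cd79b, Coro1a and Pcna were lost with the floor at the 40th percentile, with no filter and with no variance trend. That of Cd79b was also lost with averaged probe sets, although it has 1 probe set and its own values did not change. The lung markers Sftpc and Scgb1a1 were bright in both rat groups. The surfactant gene Sftpc had 1643 and 1969 in ventilated rats and 3097 and 2884 in controls. The club cell gene Scgb1a1 had 1778 and 1723 in ventilated rats and 2118 and 1969 in controls. The lung list as a whole had none of 13 called higher and 3 lower. Those 3 were Nkx2-1, Sftpc and Ace, with log2 differences of -1.33 ± 0.14, -0.73 ± 0.12 and -0.89 ± 0.18 (SE). Not all of the list was bright, as Vwf lay under the floor on 3 of the 4 rat arrays. All 13 log2 differences were negative, with a median of -0.27. In 10 of them both ventilated arrays lay below both controls, against 27.2% of all genes tested. Bright lung markers do not show whether other tissue was in a sample, which was not tested.

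**Figure D3:**
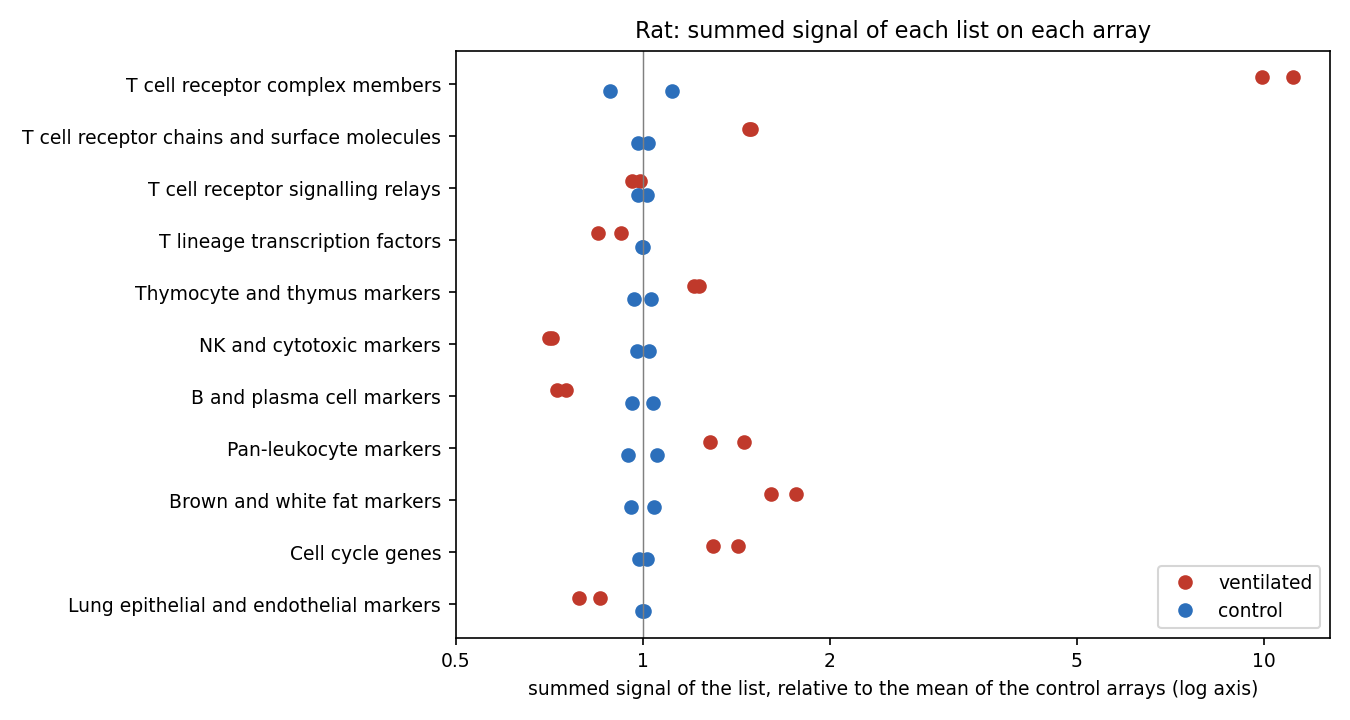
Summed signal of each list on each rat array, relative to the mean of the 2 control arrays, on a log axis. The members sum to 9.93 and 11.1 times the control mean on the ventilated arrays, fat markers to 1.61 and 1.76 times, B cell markers to 0.75 and 0.73 times, and NK markers to 0.71 and 0.71 times. Without Ccl5 the NK markers sum to 0.95 and 1.05 times, and without Ucp1 the fat markers to 1.18 and 1.35 times.

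Among rat genes that are no member, the 5 with the profile nearest to that of the members were Krt5, Scd, RatNP-3b, Fabp4 and Gpd1. Likeness was the root-mean-square distance of mean-centred log2 signals over the 4 rat arrays from the members' median profile. It was 0.12 for Krt5, against 0.04 for Cd8a, the nearest member, and 1.27 for Thy1, the farthest. Krt5, a keratin gene of basal epithelial cells, had signals of 96.1 and 84.0 in ventilated rats, with both controls, 4.47 and 8.45, under the floor, so that it was at least 7.83-fold higher, a bound set by the floor. Its log2 difference was 2.97, against 1.72 with the floor at the 40th percentile, where its call was lost, and 3.87 with a floor of 1. Its distance from the members rests on the same floored controls. Scd, a fatty acid desaturase gene, had 1090 and 1087 in ventilated rats and 178 and 209 in controls. The defensin gene RatNP-3b had 121 and 139 in ventilated rats and 14.3 and 14.1 in controls. Fabp4 and Gpd1, genes of fat cells, had log2 differences of 2.43 and 3.18. With 4 arrays, a likeness of profile amounts to a like difference between the groups.

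The mouse comparison sets ventilation at a large tidal volume against unassisted breathing. No member was called, and in none of the 9 did the groups stand apart. Of 6888 mouse genes tested, limma called 0 (0% in either direction; 178, or 2.58%, at an unadjusted p under 0.05). The ventilated arrays both exceeded the controls in 13% of genes and both lay below them in 14.5%. In 36 member signals, 13 were at or under the mouse floor of 14.2. Cd3g, Cd247 and Cd8a were too dim to test, and 6 members were tested. Over the 9 measured, 4 log2 differences were positive, 4 negative and 1 zero, with a median of 0, beside -0.03 over all genes tested.

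Of the CD3 genes, Cd3d had signals of 18.2 and 35.3 in ventilated mice and of 19.0 and 20.5 in controls, a log2 difference of 0.36 (95% interval -0.80 to 1.52; limma adjusted p = 0.9997). Cd3e, the epsilon subunit gene, had 13.2 and 18.1 in ventilated mice and 40.2 and 17.2 in controls, a log2 difference of -0.71 (interval -2.01 to 0.59). In each case 1 array stood apart from the other 3, in the ventilated group for Cd3d and among the controls for Cd3e. Cd3g had 6.78 and 17.6 in ventilated mice and 21.9 and 7.97 in controls, and Cd247 had 7.05 and 13.7 in ventilated mice and 22.9 and 8.78 in controls.

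The second probe set for Cd247 had 1.65 and 10.4 in ventilated mice and 14.7 and 18.7 in controls, mostly near or under the floor. The second for Cd3d was at or under 1.55 on all 4 arrays.

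Lat had 134 and 95 in ventilated mice and 120 and 79.8 in controls. Its log2 difference was 0.20 (interval -0.71 to 1.11), and its sign turned without control 2 (-0.09) or ventilated 1 (-0.04). Thy1 had 34.1 and 180 in ventilated mice and 97.2 and 94.4 in controls. The ventilated arrays lay on either side of the controls, and the log2 difference of -0.29 (interval -2.08 to 1.5) became 0.93 without ventilated 1. Cd2 had 3 and 42.4 in ventilated mice and 9.75 and 19.1 in controls, Cd5 had 6.83 and 34.6 in ventilated mice and 15.4 and 15 in controls, and Cd8a had 3.67 and 12.7 in ventilated mice and 5.25 and 10.4 in controls. Ventilated 2 was the higher ventilated array for every member measured except Lat. Probe sets for the RNAs spiked in at hybridisation were 2.62 times as bright on ventilated 1 as on the controls, and 0.96 times on ventilated 2. The part of this in the members' values was not tested.

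Other T cell genes of the mouse gave no call. Of 16 receptor chain and surface genes tested, 5 were positive and 11 negative, with a median log2 difference of -0.10. Cd4 and Cd8b1, the mouse counterpart of Cd8b, were named after their values were seen. Cd4 had 72.2 and 68.0 in ventilated mice and 65.9 and 69.0 in controls, and Cd8b1 had 3 and 47.8 in ventilated mice and 20.2 and 27.5 in controls. Cd6, a receptor related to CD5, had a log2 difference of -0.33 ± 0.39 and Ptprcap, which encodes a partner of CD45, one of -0.49 ± 0.37 (SE). The 34 relays tested had a median of -0.002, the 16 T lineage factors one of -0.18 and the 11 thymus genes one of 0.06, with none called. Of the defining thymocyte markers, Rag2 was under the floor on all 4 mouse arrays, at 3.17 to 6.83, and Dntt had a log2 difference of 0.01 ± 0.35 (SE). Rag1, by the brighter of its 2 probe sets, had 422 and 276 in ventilated mice and 257 and 155 in controls. Its log2 difference was 0.77 ± 0.38 (SE; limma adjusted p = 0.9997). The groups do not overlap, and 13% of mouse genes tested had both ventilated arrays above both controls. Ptcra, the pre-T cell receptor alpha gene, had 10.3 and 14.6 in ventilated mice and 7.38 and 14.2 in controls and was too dim to test.

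No marker list of another cell type held a called gene in the mouse either. Some lists differed strongly between the ventilated arrays. Neutrophil markers had a summed signal of 10731 on ventilated 1 and 2236 on ventilated 2, against 1342 and 2556 in controls. Fibroblast and smooth muscle markers had 8399 on ventilated 1 and 21797 on ventilated 2, against 21155 and 12214 in controls. The part of this in the members' values was not tested either. The lung gene Ager had 4427 and 4524 in ventilated mice and 4460 and 4524 in controls, so that lung marker was bright in both groups.

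**Figure D4:**
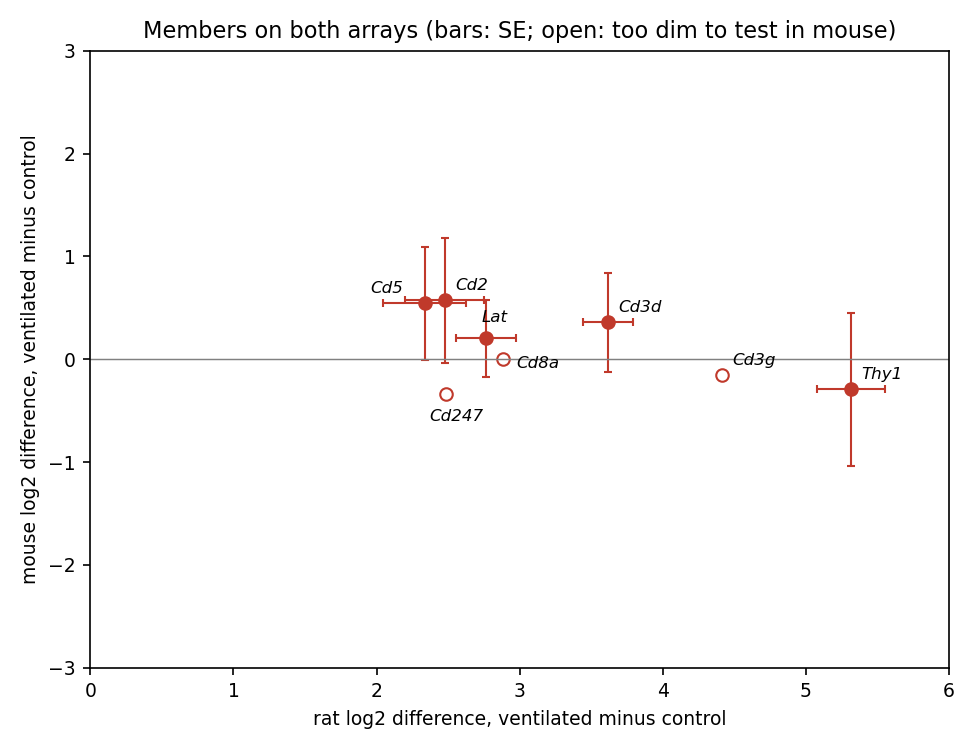
Log2 difference between ventilated and control lung in the rat (x axis) and in the mouse (y axis) for the 8 members measured in both. Bars are SE from limma, and open circles are genes too dim to test in the mouse. All 8 lie at 2.34 or above in the rat and between -0.34 and 0.57 in the mouse.

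The upper end of the mouse interval was 1.52 for Cd3d, 1.11 for Lat, 2.05 for Cd2, 1.86 for Cd5 and 1.5 for Thy1, and the rat values of these genes were 3.62, 2.77, 2.48, 2.34 and 5.32. The mouse intervals of Cd2 and Cd5 include signals raised to the floor, so their ends depend on it. With a floor of 1 the mouse log2 difference of Cd2 was -0.28. The species differed in array, tidal volume, duration and cannulation, and the difference between them was not tested, because the rat values chose the members.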

How the data were processed

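Per the labels, lung total RNA was copied with an oligo-dT primer, turned into biotin-labelled cRNA and hybridised to 1 Affymetrix array type per species. The authors deposited a signal intensity for each probe set, on a linear scale, and its 2% trimmed mean was 149 to 150 on every array. The signal software, scaling target and detection calls were not given in the sources used here. The 8 experiment descriptions were not used, since they hold text only.

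Probe sets were named with the supplied platform tables; those with several symbols or none (396 and 1193 in the mouse, 308 and 1426 in the rat) were not used for genes, and 66 mouse control probe sets were set aside. Quantile normalisation was run separately for rat and mouse, and signals were floored at the 25th percentile and put on log2. A gene was its brightest probe set and was tested if its mean signal exceeded the 25th percentile. Ventilated and control arrays were compared two-sided by limma 3.58.1 (R 4.3.3), with moderated variances that follow the mean signal, with Benjamini-Hochberg adjustment over all genes of the species and a threshold of 0.05. The fit was also run on simulated data in which 200 genes were raised by 2 on the log2 scale. Spreads were shuffled among genes there and no floor or filter was applied. Only the mean recovered difference and its sign were checked, so the run does not bear on false calls in the rat. Replicates correlated at a Pearson r of 0.977 (ventilated) and 0.967 (control) in the rat and 0.908 and 0.935 in the mouse, across genes. The members and gene lists were chosen with earlier results of these data known. The rule for named genes took all members, at most 6 genes a list by smallest p, defining markers and the 5 nearest profiles. Genes named outside it are marked, but not every gene that it allowed was named. Left out, for example, were Cdc42 in the rat (log2 difference 0.41 ± 0.11, SE) and, in the mouse, Tnfrsf9 (-0.92 ± 0.43) and Ada (1.51 ± 0.61). Alternatives changed the normalisation, floor, filter, probe-set summary, variance prior, threshold and replicate block, and left out each array.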

Additional observations from a re-analysis of the deposited data

Results flagged for a closer look

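For Cd48, both ventilated arrays lay above both controls in the rat (log2 difference 0.42) and below them in the mouse (-0.52). For Gpd1, a glycerolipid enzyme gene, the same held at 3.18 in the rat and -0.39 in the mouse. For Id2, an inhibitor of E-protein transcription factors, the values were 0.16 in the rat and -0.33 in the mouse. These are 3 of the 30 named list genes measured in both species. Over all 2256 genes tested in both under the same symbol, 9.09% had such opposite and separate groups, and of the 8 members measured in both, 0 did. The share among the list genes is near that over all genes, and nothing is read from the 0 of 8. The difference between species was not tested for these genes, whose arrays and ventilation regimens differ.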

How the results depend on the processing

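With 2 arrays a group, the members' rat differences kept their sign under every alternative run, from 1.45 (Cd2, floor at the 40th percentile) to 5.61 (Thy1, without control 1), and their median ranged from 2.80 to 2.96. In the mouse, 0 members and 0 genes were called by limma under any alternative with all arrays. The median of the members ranged from -0.27 with a floor of 1 to 0.15, and from -0.21 to 0.15 leaving out 1 array.

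Calls of single rat genes were less stable. Against 224 in all, limma called 479 at an adjusted p under 0.10, 23 with a floor at the 40th percentile and 39 with no filter. It called 61 with no variance trend and 146 with the replicate block. Leaving out 1 array leaves 1 array in a group, so calls were not read there. Genes of the chain and surface list called higher numbered 2, against 0 with that floor or no filter and 1 with no variance trend, the crossed numbers, the mean of probe sets or the deposited values; relays called lower numbered 2, against 0 with that floor, no filter, no trend or the replicate block and 1 with the mean of probe sets. The cause was not tested.

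Signs turned in uncalled genes only: Cd2 in the mouse with a floor of 1 (-0.28), Cd3d without ventilated 2 (-0.11 to 0.87 leaving out 1 array), Lat (-0.090 to 0.50), Thy1 (-1.47 to 0.93), and in the rat Fyn scaled to a common median (0.0075), Lcp2 (-0.20 to 0.46 leaving out 1 array), Ptprc (-0.0024 to 0.26) and Vav1 (-0.13 to 0.0099).

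Same-numbered arrays deviated in opposite directions (correlation -0.28 for mice, -0.11 for rats), and no label gives the numbers a meaning, so no pairing was taken from them. With the replicate block, the calls of Plcg1, Itpr1, Cd79b and Pcna in the rat were lost. With the crossed numbers as a block, chosen after seeing the data, 232 rat and 0 mouse genes were called, and Spn was not among them.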
